A study of Mus musculus with 8 samples.

Results

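Peaks of an antibody against APOBEC2 were examined at 10 genes that control the G1 phase of the cell cycle and the exit from it, out of 21887 protein-coding genes on the standard mouse chromosomes. The genes were listed by name. They are the D cyclins Ccnd1, Ccnd2 and Ccnd3, the CDK inhibitors Cdkn1a, Cdkn1b and Cdkn2c, the E cyclins Ccne1 and Ccne2, and the kinases Cdk2 and Cdk4, and all 10 were found in the gene table. A peak was counted for a gene when at least 1 bp of it lay inside the gene or within 1 kb of either end. The cells were C2C12, a mouse myoblast line whose cells stop dividing and form myotubes in low serum. APOBEC2 is a member of the AID/APOBEC deaminase family found mainly in skeletal muscle and heart. The comparison was between cells labelled 34 h and cells labelled 14 h after a change to medium with 2% horse serum, with 3 immunoprecipitated (IP) libraries and 1 input each. The growth protocol gives 24 h instead of 14 h for the earlier harvest, so that time is uncertain. Peak names in all 6 lists carry the tag GFPsh, which the labels do not explain. Nothing in the labels ties replicates to separate cultures, and the p-values given here therefore cover only the spread of these libraries, which may be technical. No library with a control antibody or from cells without APOBEC2 was used here.

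D cyclins pair with CDK4 or CDK6 and phosphorylate the retinoblastoma protein, which releases E2F transcription factors. E cyclins, themselves E2F targets, then pair with CDK2 and drive entry into S phase. Inhibitors of the INK4 class, such as the product of Cdkn2c, block CDK4 and CDK6, and those of the CIP/KIP class, the products of Cdkn1a and Cdkn1b, act mainly on CDK2 complexes. Cyclin D3 and the product of Cdkn1a are known to accumulate when myoblasts leave the cell cycle.

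Replicates 1 to 3 of 34 h had 2209, 5025 and 1068 called peaks, and those of 14 h had 768, 1327 and 797. The lists give no read totals. The number of DNA fragments at each summit was solved from the fold and p-value that the authors' peak caller wrote, and the median summit of a list stood on 19 to 24 fragments. The lowest number at any summit was 10, so binding too weak to be called cannot be told from no binding. Peak lists hold no expression values, and the cell type could only be checked for peaks. Of 8 genes of the skeletal muscle lineage, Apobec2 among them, 7 had no peak in any library, and Pax7, a satellite cell factor, had 1 in replicate 2 of 34 h. Only 20.2% of all protein-coding genes had a peak in any of the 6 libraries, so this count does not set the muscle genes apart.

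Peaks at 2 members recurred, and both sat on an annotated gene start: the E cyclin gene Ccne1 and the inhibitor gene Cdkn2c. The DNA just upstream of these starts is shown here, followed by that of Cdk2 and Cdkn1b, whose starts had no peak in any library and a peak in 1 library. Each run is 250 bases read 5′ to 3′ on the strand of the gene and ends at the base before the start. The sequences are RefSeq's on GRCm38.p6, at chr7:38107491-38107740 (minus strand) for Ccne1, chr4:109666757-109667006 (minus) for Cdkn2c, chr10:128705052-128705301 (minus) for Cdk2 and chr6:134920151-134920400 (plus) for Cdkn1b. Capitals mark TCCCGC on either strand, the core of many E2F sites, a motif chosen after the sequences were seen.
Ccne1: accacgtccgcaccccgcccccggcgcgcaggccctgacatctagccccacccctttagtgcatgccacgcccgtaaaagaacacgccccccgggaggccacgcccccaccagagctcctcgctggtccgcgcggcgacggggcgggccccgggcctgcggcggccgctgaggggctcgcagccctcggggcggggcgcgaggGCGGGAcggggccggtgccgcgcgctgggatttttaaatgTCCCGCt
Cdkn2c: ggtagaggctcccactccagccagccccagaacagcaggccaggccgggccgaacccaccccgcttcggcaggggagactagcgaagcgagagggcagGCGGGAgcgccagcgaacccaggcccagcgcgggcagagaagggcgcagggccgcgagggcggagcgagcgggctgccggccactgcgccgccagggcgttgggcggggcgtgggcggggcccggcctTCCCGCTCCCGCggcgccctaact
Cdk2: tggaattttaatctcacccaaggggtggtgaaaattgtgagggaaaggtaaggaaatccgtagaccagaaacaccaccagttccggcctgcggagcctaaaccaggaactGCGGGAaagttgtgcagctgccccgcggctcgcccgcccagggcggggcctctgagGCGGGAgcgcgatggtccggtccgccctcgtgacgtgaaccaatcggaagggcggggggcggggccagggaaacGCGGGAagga
Cdkn1b: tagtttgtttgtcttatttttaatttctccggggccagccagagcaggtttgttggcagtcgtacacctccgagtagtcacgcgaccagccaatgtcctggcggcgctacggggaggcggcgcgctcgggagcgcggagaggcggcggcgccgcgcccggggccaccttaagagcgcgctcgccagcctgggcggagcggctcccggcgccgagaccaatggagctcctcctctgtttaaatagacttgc

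The promoter table held 7 of the 10 members, with 10 starts in all and none listed for Ccnd1, Ccnd2 and Ccne2. Each entry there covers 250 bases before and 50 bases after a start. Ccne1 had the highest content of G and C among the 10 entries, at 76%, and Cdkn2c at its first start the next, at 73.3%, against a median of 52.7% over all 32851 promoters of the table. They held 41 and 33 CpG dinucleotides, where the median promoter held 7. Starts without a recurrent peak ranged from 2 CpG, at the first start of Cdkn1a, to 30 at Cdkn1b. Cdk2 and the second start of Cdkn1a, both without a peak, held 25 and 23.

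TCCCGC, searched on both strands, occurred at 2 places in the Ccne1 promoter, at 3 in Cdkn2c and at 3 in Cdk2, and in none of the other 7 entries of the members. Of all promoters in the table, 20.0% held it. A longer E2F-type motif was searched as TTCCCGC (4.60% of all promoters), TTGGCGC (2.45%), TTCGCGC (1.59%) and TTGCCGC (1.81%) on either strand, and 9.57% of all promoters held at least 1 of them. TTCCCGC contains TCCCGC, so these counts overlap. Among the members such a motif occurred once in Cdkn2c, as TTCCCGC beginning 25 bases upstream of the start, and 3 times in Cdk2, while Ccne1 held none of the 4. Cdk2 thus held the most matches of the members, and its window held no peak in any library. GGGCGG, an SP-type site, was held by 8 of the 10 entries of the members, against 35.7% of all promoters on either strand. It occurred 6 times in Cdk2, 4 times each in Ccne1 and at the first start of Cdkn2c, 3 times in Cdk4, 2 times at each start of Ccnd3 and at the second start of Cdkn1a, and once in Cdkn1b, so most entries that held it belong to genes without a recurrent peak. TTTGAA, the letters of a CHR element, occurred in none of the members' entries, against 17.9% of all promoters. CCAAT was found 3 times in Cdkn1b, once in Cdk2, once at the second listed start of Cdkn2c and once at that of Ccnd3, against 37.4% of all promoters. A match describes letters only, and positions of binding were not read from it.

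Of the inhibitors, Cdkn2c had a peak in all 6 libraries, as did 2.26% of all protein-coding genes. The region lay on chromosome 4 from 109666534 to 109667183 (mm10), over the first annotated start of the gene at 109666756, and no other protein-coding gene lay within 1 kb of any of the peaks. The authors' fold of IP signal over local background was 10.0, 10.1 and 7.34 in replicates 1 to 3 of 34 h, and 9.40, 17.9 and 9.99 in replicates 1 to 3 of 14 h. Replicate 2 of 14 h stood above the other 5 libraries, and the values of both times overlapped. Mean folds were 9.14 ± 1.56 in libraries of 34 h and 12.4 ± 4.72 in those of 14 h (SD, n = 3 each). These folds rest on 24, 27 and 17 fragments at 34 h and on 18, 39 and 20 fragments at 14 h, over backgrounds between 1.02 and 1.78 fragments.

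Summits at Cdkn2c lay close together, within 83 bp over the 6 libraries. They ran from 8 bp upstream of the start (replicate 3 of 34 h) to 75 bp inside the gene (replicate 1 of 14 h). Within its own list the peak ranked 213 of 2209, 415 of 5025 and 284 of 1068 by fold at 34 h, and 298 of 768, 220 of 1327 and 307 of 797 at 14 h. Ranks from lists of unequal length do not show a change between times.

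To compare times without the effect of list length, each library's folds were turned into percentiles among the 428 regions with a peak in all 6 libraries. The 3 libraries of a time share 1 input as control, and percentiles do not remove a difference between the inputs. Separations between times and their p-values can therefore hold such a difference. Cdkn2c is the only member in that set. Its percentile was 52.9, 32.4 and 44.9 at 34 h and 37.3, 51.5 and 35.4 at 14 h. The means of 43.4 ± 10.4 and 41.4 ± 8.82 (SD, n = 3 each) put it a little below the middle of the set at both times. The difference of 1.99 percentile points, 34 h minus 14 h, was smaller than the spread between replicates (exact two-sided permutation test, p = 0.9, adjusted p = 0.942 over 428 regions by Benjamini-Hochberg). Its sign changed when replicate 1 of 34 h (-2.70 points), replicate 1 of 14 h (-1.25) or replicate 3 of 14 h (-2.02) was left out. In that set 14.7% of regions had percentiles at 34 h all above those of 14 h, and 17.5% all below. With 3 libraries against 3 the smallest p is 0.1, and no region of the 428 passed at an adjusted p of 0.05 or at an unadjusted p under 0.05. The 3 regions whose percentiles over the 6 libraries were most like those of Cdkn2c lay at Map3k7, Hrob and Lsm6, with mean absolute differences of 6.25, 7.44 and 8.04 percentile points.

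**Figure D1:**
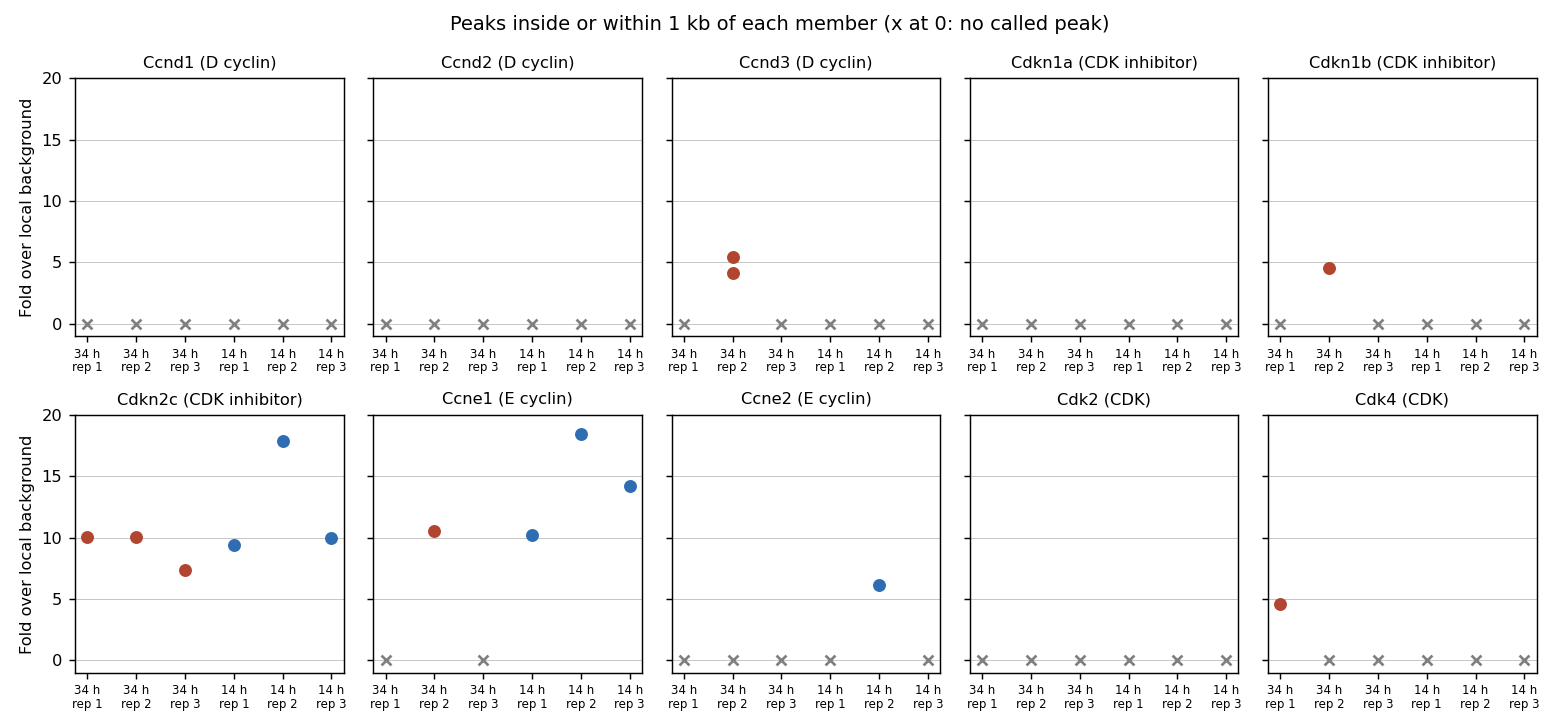
Authors' fold over local background (y axis) of every peak inside or within 1 kb of each member, by IP library (x axis, 34 h in red, 14 h in blue); grey crosses mark libraries with no called peak. Cdkn2c has a point in all 6 libraries, between 7.34 and 17.9, and Ccne1 in 4, while the other 8 panels hold a point in at most 1 library.

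The CIP/KIP inhibitor Cdkn1a (chromosome 17, 29090979 to 29100722) had no peak in any library, and the nearest peak of any list lay 11752 bp away, in replicate 2 of 34 h. Cdkn1b (chromosome 6, 134920401 to 134925525) had a peak in its window in replicate 2 of 34 h alone, with its summit 189 bp upstream of the start, a fold of 4.56 on 16 fragments, and rank 4209 of 5025. That list was the longest, and 18.1% of all protein-coding genes had a peak in it. Another cluster of peaks stood just outside the window, past the end of Cdkn1b. Replicates 1 and 2 of 34 h had a peak 1749 and 1721 bp beyond the end, with folds of 8.19 and 7.67, and replicates 1 and 2 of 14 h had one 1793 and 1764 bp beyond it, with folds of 6.76 and 9.99. In the list of replicate 2 of 34 h the peak past the end thus stood higher than the peak at the start. Farther out, replicates 1 to 3 of 34 h had overlapping peaks 2770, 2646 and 2746 bp beyond the end, with folds of 4.82, 5.75 and 4.89, and no library of 14 h had one there. These lie outside the window and were noticed after the values were seen, so they have no test; within 1 kb of a gene, 1.04% of all genes had a peak in every library of 34 h while lacking one throughout 14 h. Replicate 2 of 34 h had a further peak 3045 bp beyond the end, with a fold of 7.81, and replicate 3 of 14 h had none within 5 kb.

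Of the D cyclins, 1 of 3 had a peak in its window. Ccnd2 (chromosome 6, 127125162 to 127152188) had none in any library, and the nearest lay 178038 bp away. Ccnd1 (chromosome 7, 144929931 to 144939831) also had none in its window. Outside it, 1 peak lay 1739 bp past the higher boundary in replicate 3 of 34 h (fold 5.19) and 1 lay 1595 bp past it in replicate 2 of 14 h (fold 6.23). Ccnd3 (chromosome 17, 47505051 to 47599689), the D cyclin gene that is induced in differentiating myoblasts, had 2 peaks in replicate 2 of 34 h and none elsewhere. They had folds of 4.10 and 5.44, on 18 and 16 fragments, and their summits lay 6219 bp downstream of the first and 2370 bp downstream of the second annotated start. They ranked 4667 and 2899 of the 5025 peaks by fold, so 1 was near the bottom of the longest list.

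Ccne1, the E cyclin gene on chromosome 7 (38097984 to 38107490), had a peak in 1 library at 34 h and in all 3 at 14 h. At 34 h, replicate 2 had a fold of 10.5 on 31 fragments, and replicates 1 and 3 had no called peak. At 14 h, replicates 1 to 3 had folds of 10.2, 18.5 and 14.2 on 19, 39 and 28 fragments, with a mean of 14.3 ± 4.11 (SD, n = 3). Backgrounds were 2.04 fragments in replicate 2 of 34 h and 0.954, 1.17 and 1.04 in replicates 1 to 3 of 14 h. The background in libraries without a called peak is not known, and a role of background in the missing calls was not tested. The single value of 34 h lay inside the range of 14 h, and the times overlapped in the presence of a peak. A peak in 1 of 3 libraries against 3 of 3 gave p = 0.4 (exact two-sided permutation test), the smallest p that 4 peaks over 6 libraries can give, so the difference was not shown to exceed the spread between libraries.

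The 4 summits at Ccne1 lay within 24 bp of each other, from 28 bp to 4 bp upstream of the annotated start at 38107490, inside the printed stretch. All 4 peaks shared 38107423 to 38107627. By fold, the peak ranked 364 of 5025 in replicate 2 of 34 h and 259 of 768, 203 of 1327 and 169 of 797 at 14 h. No other protein-coding gene lay within 1 kb of these peaks. Of the 648 genes with a peak in all 3 libraries of 14 h, 495 (76.4%) also had one in all 3 of 34 h, 102 in 2, 43 (6.64%) in 1, as Ccne1 did, and 8 in none. Over all genes, 0.233% had 3 libraries at 14 h and at most 1 at 34 h.

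**Figure D2:**
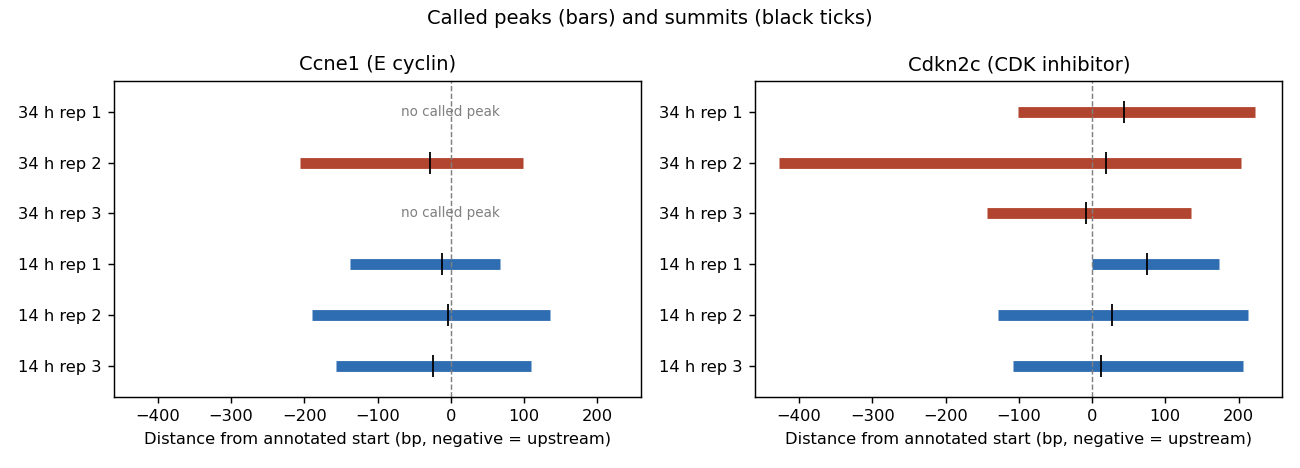
Called peaks (bars) and summits (black ticks) at Ccne1 and Cdkn2c, by IP library (rows, 34 h in red above 14 h in blue), as distance in bp from the annotated start (x axis, negative upstream). Every bar reaches or spans the start; the Ccne1 summits lie 28 to 4 bp upstream of it and those of Cdkn2c from 8 bp upstream to 75 bp downstream.

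Ccne2 (chromosome 4, 11190433 to 11204779), the paralogue of Ccne1, had no peak at 34 h and 1 at 14 h, in replicate 2. Its fold was 6.12 on 15 fragments, its summit lay 450 bp inside the lower boundary of the gene, and it ranked 997 of 1327. No other library had a peak within 5 kb of the gene. The E cyclins thus differed from each other, with 4 libraries for Ccne1 and 1 for Ccne2.

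Neither kinase gene had a recurrent peak. Cdk4 (chromosome 10, 127063535 to 127067288) had 1, in replicate 1 of 34 h, with its summit 237 bp downstream of the start, a fold of 4.58 on 14 fragments and rank 1903 of 2209. Replicate 2 of 34 h had a peak 2950 bp past the end of Cdk4, with a fold of 5.51, within 1 kb of the adjoining gene Tspan31. Cdk2 (chromosome 10, 128697938 to 128705051) had none in its window. The nearest peaks to Cdk2 lay past its end, 1337 bp away in replicate 1 (fold 5.94) and 1163 bp away in replicate 2 (fold 8.61) of 34 h. Both were within 1 kb of the adjoining genes Rab5b and Pmel. With the peaks past Ccnd1, Cdkn1b and Cdk4 given above, these are all the peaks of the lists that lay within 5 kb of a member and outside its window.

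The D cyclins and inhibitors were then set beside the E cyclins. Of 18 pairs of gene and library at each time, the 6 D cyclin and inhibitor genes had a peak in 5 at 34 h and 3 at 14 h. Of 6 such pairs, the E cyclins had a peak in 1 at 34 h and 4 at 14 h. All 3 pairs of the D cyclins and inhibitors at 14 h, and 3 of their 5 at 34 h, came from Cdkn2c. Without it, a choice made after the values were seen, the remaining 5 genes had 2 of 15 pairs at 34 h and 0 of 15 at 14 h. Of all genes, 9.24%, 18.1% and 4.7% had a peak in replicates 1 to 3 of 34 h. The shares were 3.72%, 6.5% and 3.97% in those of 14 h. The counts without Cdkn2c are near these shares and show no time pattern of the group. In at least 2 libraries of a time, 1 of 6 D cyclin and inhibitor genes had a peak at 34 h and the same count at 14 h. For the E cyclins it was 0 of 2 and 1 of 2, and for all genes 9.01% and 4.27%. The groups are too few for a test, and their genes were chosen with earlier results of these data known. Neither group was uniform, since Cdkn2c stood apart in the first and Ccne1 in the second.

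Over all 10 members, 1 (10%) had a peak in at least 2 libraries at 34 h, where 9.01% of all protein-coding genes did. At 14 h it was 2 (20%), where 4.27% of all genes did. The count at 34 h is near that of all genes, and at 14 h it rests on Ccne1 and Cdkn2c. By library, 2, 4 and 1 members had a peak in replicates 1 to 3 of 34 h, where 9.24%, 18.1% and 4.7% of all genes did. In replicates 1 to 3 of 14 h, 2, 3 and 2 members had one, where 3.72%, 6.5% and 3.97% of all genes did. The median member had a peak in 1 of 6 libraries and the median gene in 0. In any of the 6 libraries 6 members had one, against 20.2% of all genes. No member had peaks in its window in all libraries of one time and in none of the other, which held for 1.04% of genes in favour of 34 h and 0.0366% in favour of 14 h. For the 9 members other than Ccne1, the exact two-sided permutation test on presence gave p = 1. These had a peak in 0, 1 or 6 libraries, where the test can give no other value, so it says nothing about time.

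**Figure D3:**
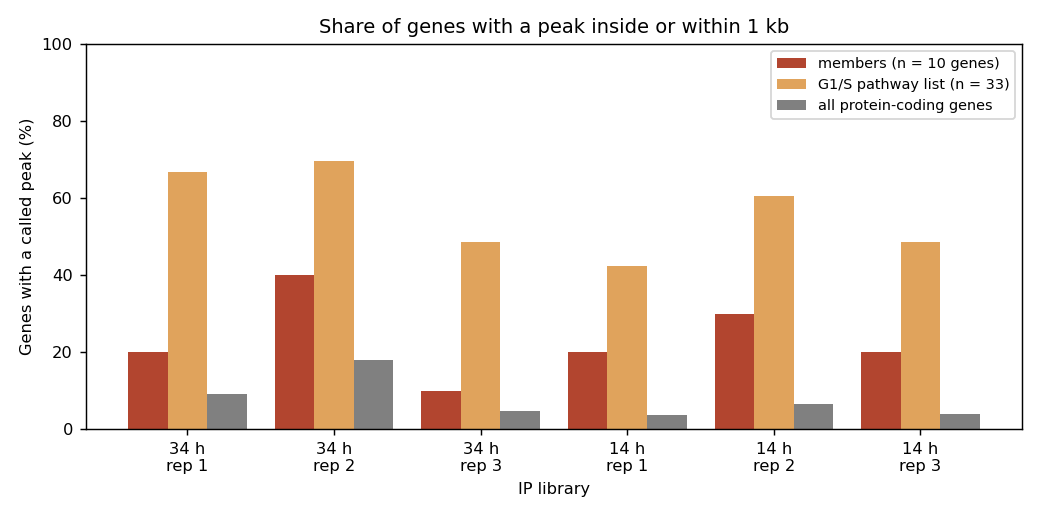
Percentage of genes with a called peak inside or within 1 kb (y axis) by IP library (x axis, 34 h left of 14 h), for the 10 members, a list of 33 other genes, mostly of the G1/S pathway, and all protein-coding genes. Members and list were chosen with earlier results of these data known. The pathway list is above the members in each library, and the members are highest in replicate 2 of 34 h, where 18.1% of all genes have a peak.

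Other genes of the pathway were covered more often than the members. Of 33 further genes, mostly of G1/S control, 23 (69.7%) had a peak in at least 2 libraries at 34 h and 17 (51.5%) at 14 h. For all genes the shares were the same 9.01% and 4.27%. This list also holds Ccna2, Cdk1 and Ccnb1, which act later in the cycle. It was chosen, as the members were, with earlier results of these data known, so its shares describe the list and test nothing. The count at 34 h was 15 without replicate 2 of that time. With lists of equal length the counts were 13 at 34 h and 16 at 14 h, so their order reversed. No share of all genes is given for these settings. The median gene of this list had a peak in 3 of 6 libraries. A peak in at least 2 libraries was found at both times for 16 genes, at 34 h but not at 14 h for 7 (Rb1, E2f5, Tfdp2, Skp2, Fbxw7, Mnat1 and Mdm2) and at 14 h but not at 34 h for 1 (Rbl2). Of the 7, E2f5 and Tfdp2 also had a peak in 1 library of 14 h, replicate 2, with folds of 5.66 and 5.71. All of the 7 but Mnat1 reached 2 libraries at 34 h only with replicate 2, the longest list. No share of all genes is given for a call at 1 time alone, so this split does not show a change between times. Genes with a peak in all 6 libraries numbered 12: Cdkn2d, Rbl1, E2f3, E2f7, E2f8, Cks1b, Ccna2, Cdk1, Ccnb1, Cdt1, Myc and Trp53. E2f1, Tfdp1, Cdc25a and Cdc6 made up the rest of the 16. E2f2 had a peak in replicate 2 of 14 h alone. All peaks at Cks1b and Skp2, the highest of each library at Trp53 and those of 5 libraries at Ccna2 also lay within 1 kb of an adjoining gene (Shc1, Lmbrd2, Wrap53 and Bbs7). Cdk6, the other partner of the D cyclins, had none, nor did Cdkn1c, Cdkn2a, Cdkn2b, E2f4, E2f6, Cdk7 and Ccnh.

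Among the INK4 inhibitors, Cdkn2c and Cdkn2d each had a peak in 6 of 6 libraries, and Cdkn2a and Cdkn2b in none. Among the CIP/KIP inhibitors, Cdkn1b had a peak in 1 library, and Cdkn1a and Cdkn1c in none. The peaks at Cdkn2d had folds of 8.95, 10.6 and 7.18 at 34 h and 15.3, 29.7 and 19.8 at 14 h. Their percentiles in the set of 428 regions were 44.5, 37.3 and 41.9 at 34 h, all below the 70.9, 84.2 and 83.8 at 14 h. That difference of -38.4 percentile points had an exact permutation p of 0.1, the smallest possible, and an adjusted p of 0.310. It did not pass, and 17.5% of the regions showed the same separation. In the pathway list, Rbl1 (-20.2 points) and E2f3 (-3.86) were also all below at 34 h. Cdk1 (48.8) and Trp53 (51.6) were all above, as were 14.7% of the regions, and none of these passed either. Fragments at the Cdkn2d summits overlapped between times, with 42, 53 and 31 at 34 h and 30, 66 and 41 at 14 h. Backgrounds there were 3.81, 4.09 and 3.46 fragments at 34 h and 1.03, 1.26 and 1.12 at 14 h. The lower folds at 34 h thus went with higher backgrounds, and a change in IP signal was not tested. The percentiles of Cdkn2c overlapped between times, and the difference between both inhibitors was not tested. Mnat1, a subunit of the CDK-activating kinase, had peaks in 3 libraries at 34 h and 0 at 14 h (exact permutation p = 0.1, the smallest possible). The highest peak of each library lay deep inside the gene, which spans 161804 bp. Of all genes, 1.04% had the same pattern, and peak presence in lists of unequal length does not show a change between times.

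**Figure D4:**
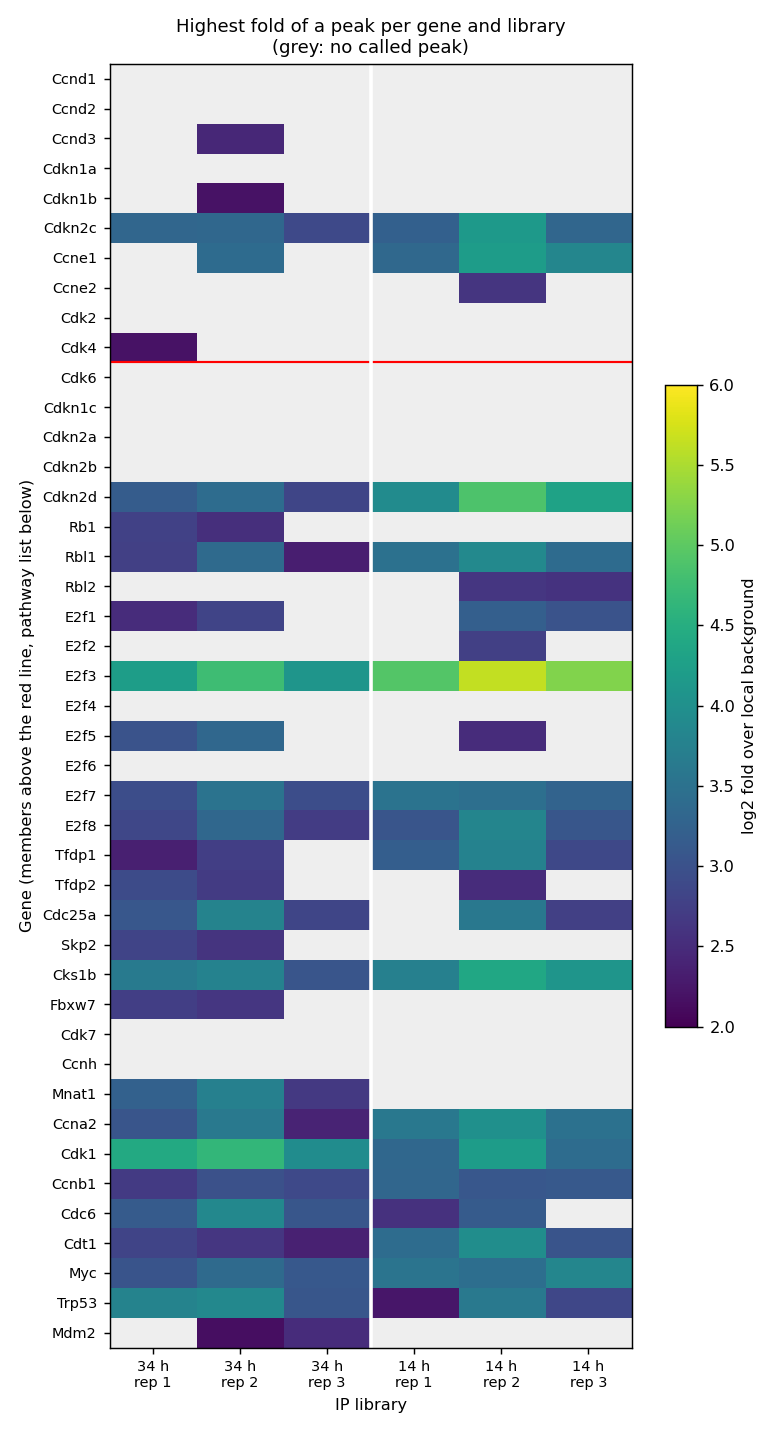
Highest log2 fold over local background of a peak (colour) per gene (rows, the 10 members above the red line and the 33 genes of the pathway list below it) and IP library (columns, 34 h left of 14 h); grey cells have no called peak. Among the members the rows of Cdkn2c and Ccne1 hold 6 and 4 coloured cells and the other 8 rows at most 1, whereas 12 rows of the pathway list are coloured in all 6 libraries.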

How the data were processed

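The submitters' processing notes name Subread, MACS2 and the mm10 build, with no versions or threshold. Each IP library was called on its own, with the input of the same time as control, per the peak names in the deposited lists. Fold in the deposited lists is the peak caller's ratio of the IP to the local background at a summit. Further deposited columns hold −log10 p-values, −log10 q-values and an integer score. Positions came from NCBI RefSeq on GRCm38.p6, the primary assembly of mm10.

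Fragments at each summit were solved from fold and p as a Poisson tail, to within 0.001 on the −log10 p scale for 100% of peaks; folds and fragments carry counting error. Peaks overlapping by 1 bp were merged into regions. Exact two-sided permutation tests compared times, with Benjamini-Hochberg adjustment over all 428 regions. Scripts were tested on simulated data (Python 3.11.15, SciPy 1.17.1, pandas 2.3.3). Named genes are all members, pathway genes with a region in at least 2 libraries of a time, and the 3 most similar regions; pathway genes with fewer are named to account for the list. Members and lists were chosen with earlier results of these data known. Alternatives covered the threshold, list length, window, libraries required and left-out libraries. The inputs have no peak list and were not compared.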

Additional observations from a re-analysis of the deposited data

How the results depend on the processing

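Counts of genes with a peak in at least 2 libraries moved by over 1.5 times in 10 pairs of a count and an alternative. The share of all genes depends on these settings too and is not given for them. The counts below therefore do not set the members or the pathway list against other genes. Within 5 kb of a gene, 4 members had one at 34 h (Cdkn2c, Cdkn1b, Cdk2 and Cdk4), of them 2 among the D cyclins and inhibitors; at 14 h that group had 2. With any library sufficing, the counts at 34 h were 5 members, 3 D cyclins and inhibitors and 1 E cyclin, and 2 E cyclins at 14 h. The pathway list at 34 h had 13 genes with lists of equal length, 15 where all 3 libraries were required, and 15 to 22 with a library of 34 h left out. At 14 h it had 16 with lists of equal length and 13 where all 3 libraries were required. The main counts were 23 at 34 h and 17 at 14 h, so their order reversed with lists of equal length. A −log10 q of at least 5, gene bodies alone and summits in place of peaks moved none of these counts past that limit. With lists of equal length, chosen for single genes after seeing the data, Ccnd3, Cdkn1b, Ccne2 and Cdk4 had no peak left, while Cdkn2c had 6 of 6 libraries and Ccne1 had 1 at 34 h and 3 at 14 h. The percentile difference of Cdkn2c reversed to -4.05 with recovered fragments and to -0.101 with lists of equal length, and lay between -2.70 and 7.46 with a library left out; it never passed.

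Any pairing of samples by replicate number was weak, and it was not tested. Deviations of same-numbered libraries from their time means correlated at 0.0394, 0.107 and 0.0300 over 428 regions. Those of differently numbered libraries correlated between -0.0593 and 0.0144, so each library correlated best with its own number. With the replicate block the exact p of Cdkn2c was 1 for a difference of 1.99, and that of peak presence at Ccne1 was 0.5 for a difference of -2 libraries. Sign flips over 3 pairs cannot go below 0.25.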

Other observations

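In replicate 2 of 34 h, 364 peaks had a fold at least as high as that of Ccne1. Of these, 329 (90.4%) overlapped a peak in both other libraries of 34 h, and 5 (1.37%), the Ccne1 peak among them, overlapped none in either. The set was cut at the fold of Ccne1, so the Ccne1 peak has the lowest fold in it. The share therefore does not measure how unusual Ccne1 is among peaks of like fold. This count was made after the values at Ccne1 were seen and has no test.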
